A study of Mus musculus with 5 samples.

Results

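The genes described here are 10 genes of the transforming growth factor beta (TGF-beta) system: the ligand genes Tgfb1, Tgfb2 and Tgfb3, the receptor genes Tgfbr1, Tgfbr2 and Tgfbr3, the latent binding protein genes Ltbp1, Ltbp2 and Ltbp3, and Tgfbi, a matrix gene named for its induction by TGF-beta. They were chosen by symbol, and all 10 were found among the 19699 gene entries of the deposited table. The tissue was the main airway part of the lung, trachea included, taken from embryonic mice at stage E13.5 for bulk RNA sequencing. There were 2 mutant libraries and 3 control libraries. The mutants lacked Prmt5, an arginine methyltransferase gene, in the lung epithelium, in C57 mice. The label of the mutants says knockdown, whereas the protocol and the design text describe an epithelial knockout, and the design text names Shh beside Prmt5 in the mutant genotype. The controls were littermates labelled WT, so a difference between the groups cannot be assigned to Prmt5 apart from that Shh component. Nothing in the labels says which promoter drove the deletion or whether a library held 1 embryo or several. The p-values therefore cover only the variation among the 5 libraries, whatever its source.

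TGF-beta is made as a precursor whose propeptide stays wrapped around the mature ligand after cleavage and keeps it silent. This latent complex is joined by disulfide bonds to a latent binding protein, which anchors it in fibrillin microfibrils until integrins or proteases free the ligand. The free ligand brings together the type II receptor Tgfbr2 and the type I receptor Tgfbr1, which phosphorylates SMAD2 and SMAD3, and these enter the nucleus with SMAD4. In the embryonic lung the pathway acts in mesenchyme and epithelium, and added TGF-beta is known to restrain branching of lung explants.

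In this tissue the 10 genes spanned a wide range of levels but few differences between the groups. None passed an adjusted p of 0.05 between mutants and controls. By unadjusted p the clearest differences were in 4 genes. The latent binder genes Ltbp1 and Ltbp3 and the type I receptor gene Tgfbr1 lay below all controls in both mutants. The co-receptor gene Tgfbr3 lay above them. Tgfb3 also lay below all controls in both mutants. Over all genes tested, 24.4% lay below all controls and 13.2% above them. The levels of Tgfb1, Tgfb2, Tgfbr2, Ltbp2 and Tgfbi overlapped between the groups.

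The level is in FPKM, fragments scaled to gene length and to the reads of the library, so it can be set side by side between genes. By their mean over the 5 libraries the order ran from Tgfbi (58.3 FPKM) over Ltbp3 (43.6), Tgfb3 (31.4), Tgfbr2 (25.9), Tgfb2 (24.3), Ltbp1 (22.2), Tgfbr1 (17.6), Tgfbr3 (8.09) and Tgfb1 (7.26) to Ltbp2 (1.15). The ranges over the 5 libraries were apart for only 2 neighbouring pairs in this order, Tgfbr1 above Tgfbr3 and Tgfb1 above Ltbp2. Ltbp3 above Tgfb3, Tgfb3 above Tgfbr2 and Ltbp1 above Tgfbr1 held in each of the 5 libraries, although their ranges overlapped. The other 4 neighbouring pairs changed places between libraries and cannot be ordered. Tgfbi lay above 93.9% of the 12838 genes tested and Ltbp2 above 5.29%. These levels depend on the gene lengths used by the authors. The length implied by the table was shorter than the summed exons of GENCODE M21 for Tgfbr2 (4785 against 8187 bases), Ltbp3 (5190 against 9069), Tgfbi (2678 against 3771) and Ltbp1 (10480 against 10691), while for Tgfb3 it differed by 1 base and for the other 5 it was equal.

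**Figure D1:**
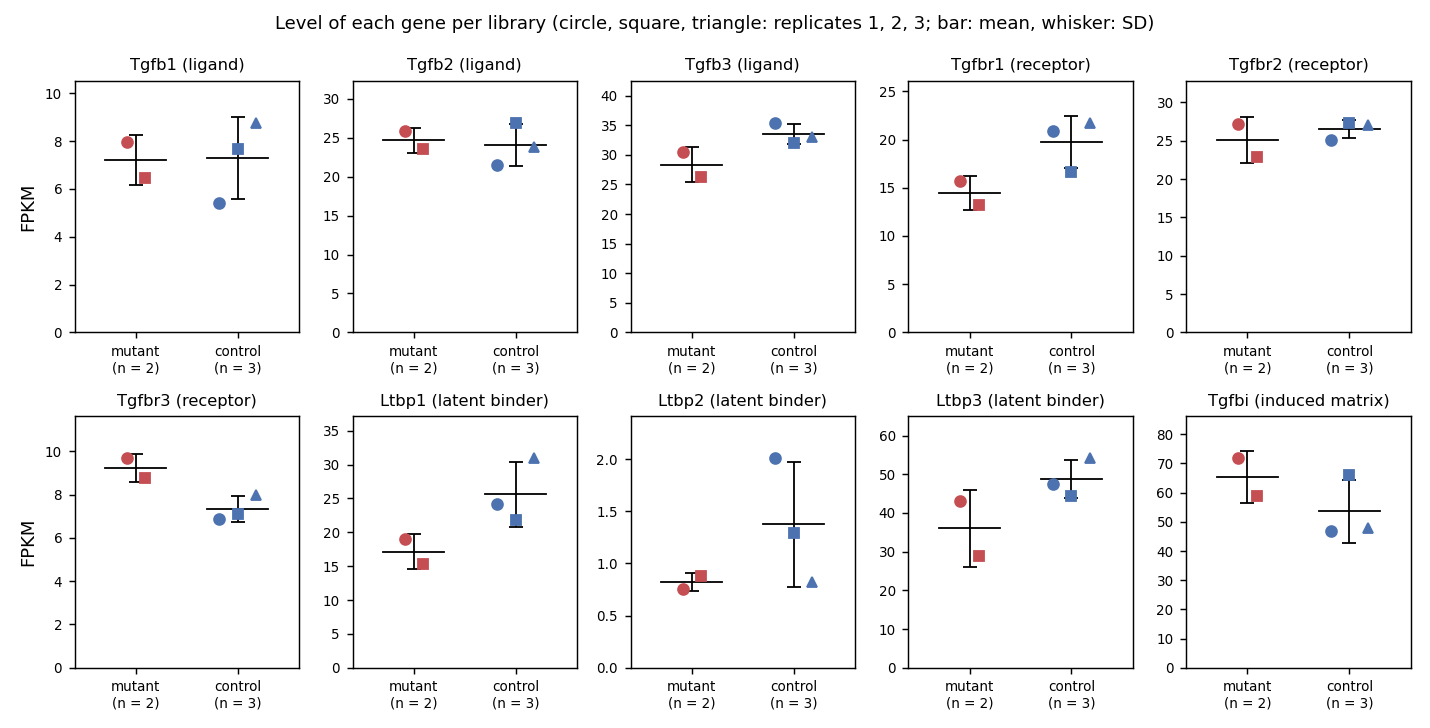
Level of each of the 10 genes in FPKM (vertical axis, from 0) in the 2 mutant libraries (red, left) and the 3 control libraries (blue, right), with the group mean as a bar and the SD as a whisker. For Tgfb3, Tgfbr1, Ltbp1 and Ltbp3 both mutants lie below all 3 controls, for Tgfbr3 both lie above them, and for the other 5 genes the groups overlap.

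Some facts of the libraries bear on every comparison. The libraries held 15652503 to 15756526 reads in the mutants and 16305922 to 18682463 reads in the controls, recovered from the steps between FPKM values. Mutant replicate 2 had lower values than mutant replicate 1 for 9 of the 10 genes, with a median ratio of 0.841, and over all genes tested the median ratio was 0.913. Female RNA, read from Xist, was nearly absent from the mutants (0.0673 and 0.289 FPKM) and present in each control (57.3, 58.1 and 115 FPKM). The Y-linked Ddx3y had 12.0 and 10.8 FPKM in the mutants, against 9.91, 6.70 and 2.54 FPKM in the controls. Each control thus held RNA of both sexes, and so of more than 1 embryo, while the mutants held almost only male RNA. Mixed-sex controls were therefore set against mutants that looked male, and sex and genotype cannot be told apart in full. Prmt5 itself was at 23.7 and 20.1 FPKM in the mutants, against 28.7, 26.4 and 25.8 FPKM in the controls, with a log2 change of -0.29 that missed the threshold (limma adjusted p = 0.234). Without mutant replicate 2 it was -0.18. The library tissue held epithelial markers at a summed 324 FPKM in each mutant and 302 to 789 FPKM in the controls, and none of the 12 was at 0 in any library. By gene, 0 of the 12 passed with limma, where 2.36% of all genes tested did. Of the 12, 7 lay below all controls and 0 above them, where 24.4% and 13.2% of all genes did. Their median log2 change was -0.61, beside -0.06 for all genes.

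Among the ligands, Tgfb3 and Tgfb2 made up most of the RNA. Tgfb3 encodes the ligand best known for fusion of the palate and is also expressed in lung mesenchyme and mesothelium. It was at 30.5 and 26.2 FPKM in the mutants, against 35.4, 32.1 and 33.0 FPKM in the controls. Both mutants lay below all 3 controls, but the difference was small: the mutants averaged 28.3 ± 2.98 FPKM (SD, n = 2) and the controls 33.5 ± 1.71 FPKM (SD, n = 3). The log2 change was -0.24 (SE 0.11, 95% interval -0.50 to 0.03), which missed the threshold (limma adjusted p = 0.312). It was -0.13 without mutant replicate 2 and -0.15 with median ratio scaling. All log2 changes here are on the scale of log2(FPKM + 1) and run as mutant minus control.

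Tgfb2, which encodes a ligand needed for heart, skeleton and lung development in mice, was at 25.8 and 23.5 FPKM in the mutants, against 21.5, 26.9 and 23.8 FPKM in the controls. Tgfb1, whose ligand is the form most often studied in fibrosis and immunity, was at 7.96 and 6.47 FPKM in the mutants, against 5.41, 7.68 and 8.76 FPKM in the controls. For both genes the mutants lay inside the range of the controls. The log2 changes were 0.04 for Tgfb2 (95% interval -0.25 to 0.33) and 0.00 for Tgfb1 (95% interval -0.45 to 0.45). A change of either gene within those bounds remains possible given these libraries. Tgfb1 ranged over 1.62-fold between libraries, with its lowest value in control replicate 1. Together the 3 ligand genes summed to 64.2 and 56.2 FPKM in the mutants, against 62.4, 66.7 and 65.5 FPKM in the controls, and the groups overlapped. Tgfb3 held 47.4% and 46.7% of that sum in the mutants, against 56.8%, 48.1% and 50.4% in the controls, so its share also lay below all controls.

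The estimates for the receptor genes differed in sign, and none of these genes passed the threshold. Tgfbr1 encodes the type I receptor kinase that passes the signal to SMAD2 and SMAD3. It was at 15.7 and 13.2 FPKM in the mutants, against 20.9, 16.6 and 21.7 FPKM in the controls. Both mutants lay below all controls, with control replicate 2 close to mutant replicate 1. The mutant mean was 14.4 ± 1.77 FPKM (SD, n = 2) and the control mean 19.8 ± 2.74 FPKM (SD, n = 3), a log2 change of -0.42 (SE 0.15, 95% interval -0.77 to -0.08) that missed the threshold (limma adjusted p = 0.177). Tgfbr2, the type II receptor that binds the ligand first, was at 27.2 and 22.9 FPKM in the mutants, against 25.1, 27.3 and 27.0 FPKM in the controls. Its groups overlapped, with a log2 change of -0.08 (95% interval -0.35 to 0.19).

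Tgfbr3 encodes betaglycan, a co-receptor without a kinase that presents TGF-beta, above all the form made from Tgfb2, to the type II receptor and also binds inhibins. It was at 9.68 and 8.79 FPKM in the mutants, against 6.89, 7.08 and 8.0 FPKM in the controls. It was the only one of the 10 genes with both mutants above all 3 controls. The mutants averaged 9.23 ± 0.631 FPKM (SD, n = 2) and the controls 7.32 ± 0.595 FPKM (SD, n = 3). The log2 change was 0.30 (SE 0.12, 95% interval 0.02 to 0.57), which missed the threshold (limma adjusted p = 0.229).

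Since a ratio of genes within a library does not depend on how libraries are scaled to each other, the receptor genes were also set against each other, a comparison chosen after their values were seen and given with no test. The ratio of Tgfbr3 to Tgfbr1 FPKM was 0.617 and 0.667 in the mutants, against 0.329, 0.426 and 0.368 in the controls. The mutants averaged 0.642 ± 0.0352 (SD, n = 2) and the controls 0.374 ± 0.0486 (SD, n = 3), and the groups were well apart. The ratio of Tgfbr1 to Tgfbr2 was 0.576 and 0.575 in the mutants, against 0.832, 0.609 and 0.805 in the controls. Here control replicate 2 lay close to the mutants. A ratio shows that the genes of a pair differed unequally between the groups, not which of them did.

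**Figure D2:**
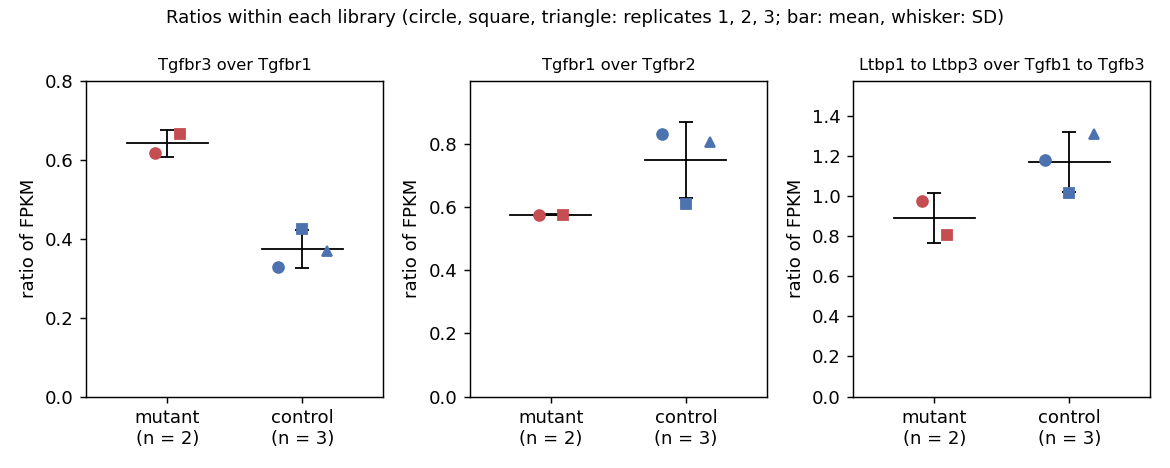
Ratio of FPKM values within each library (vertical axes, from 0) for Tgfbr3 over Tgfbr1, Tgfbr1 over Tgfbr2, and summed Ltbp1 to Ltbp3 over summed Tgfb1 to Tgfb3, in mutants (red, left) and controls (blue, right), with means as bars and SDs as whiskers. The first ratio lies at 0.617 and 0.667 in the mutants, above all controls, and the other 2 ratios lie below all controls in the mutants.

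Of the latent binding protein genes, Ltbp1 and Ltbp3 lay below all controls in both mutants. Ltbp1 encodes a large matrix glycoprotein that carries latent TGF-beta to microfibrils. It was at 19.0 and 15.3 FPKM in the mutants, against 24.1, 21.8 and 30.9 FPKM in the controls. Both mutants lay below all controls, and control replicate 3 was the highest. The mutants averaged 17.1 ± 2.60 FPKM (SD, n = 2) and the controls 25.6 ± 4.76 FPKM (SD, n = 3). The log2 change of -0.55 (SE 0.17, 95% interval -0.94 to -0.15) had the smallest p of the 10 genes and missed the threshold (limma adjusted p = 0.143). Adjusting for the share of male RNA brought it to -0.29 (limma adjusted p = 0.796).

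Ltbp3, which encodes another binder of latent TGF-beta, known in mice for its part in bone and tooth formation, was at 43.0 and 29.0 FPKM in the mutants, against 47.4, 44.5 and 54.1 FPKM in the controls. Mutant replicate 1 lay just below control replicate 2, and mutant replicate 2 was far below every other library. The mutants averaged 36.0 ± 9.89 FPKM (SD, n = 2) and the controls 48.7 ± 4.93 FPKM (SD, n = 3), a log2 change of -0.45 (SE 0.18, limma adjusted p = 0.226). Without mutant replicate 2 it was -0.17 (adjusted p = 0.817) and without mutant replicate 1 it was -0.72 (adjusted p = 0.147).

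Ltbp2 encodes the member of the family that does not bind latent TGF-beta and acts in microfibril assembly. It was low, with 0.760 and 0.882 FPKM (98 and 113 reads) in the mutants, against 2.01, 1.30 and 0.818 FPKM (307, 173 and 122 reads) in the controls. Control replicate 3 lay between the mutants. The gene passed the filter of 1 FPKM in at least 2 libraries only through control replicates 1 and 2, and its log2 change of -0.35 (95% interval -0.92 to 0.21) missed the threshold (limma adjusted p = 0.491). It was -0.60 with a pseudocount of 0.1, -0.65 with voom, -0.80 when adjusted for the share of male RNA, -0.53 without control replicate 3 and -0.20 with quantile normalization, and passed in none of these (adjusted p = 0.321 to 0.71). The 3 binder genes together summed to 62.7 and 45.2 FPKM in the mutants, against 73.6, 67.6 and 85.9 FPKM in the controls. Their ratio to the summed ligand genes was 0.977 and 0.804 in the mutants, against 1.18, 1.01 and 1.31 in the controls. It was given no test, and mutant replicate 1 lay close to control replicate 2. The sum holds Ltbp2 but leaves out Ltbp4, a further gene of the family with a higher mean than any of them (50.4 FPKM). The groups overlapped for Ltbp4, so the ratio describes these 3 genes only and not all binder RNA. Bulk RNA cannot tell fewer cells of a type that makes these genes from less RNA per cell.

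Tgfbi encodes a secreted matrix protein that binds collagens and integrins. It was at 71.8 and 59.0 FPKM in the mutants, against 46.7, 66.2 and 47.8 FPKM in the controls. Control replicate 2 lay between the mutants, and the groups overlapped. The mutants averaged 65.4 ± 9.01 FPKM (SD, n = 2) and the controls 53.6 ± 10.9 FPKM (SD, n = 3), with a log2 change of 0.29 (SE 0.17, 95% interval -0.11 to 0.70, limma adjusted p = 0.424). Leaving out 1 library gave 0.16 (without mutant replicate 1) to 0.45 (without control replicate 2, limma adjusted p = 0.148), and adjusting for male RNA gave 0.16.

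Over the 10 genes, 0 passed an adjusted p of 0.05 with limma in either direction, where 2.36% of the 12838 genes tested did, and 0 passed with voom on the recovered reads, where 4.70% of all genes did. At an unadjusted p under 0.05 there were 4, against 18.9% of all genes. With TPM that count was 0, where 625 of 12838 genes had such a p. Without control replicate 1 and with the replicate block it was 1, Ltbp1 in both, where 2262 of 12633 and 1837 of 12838 genes did. With the share of male RNA it was 1, there Ltbp2, which was not among the 4, where 1369 of 12838 genes did. Without mutant replicate 2 the log2 changes of Ltbp1, Tgfbr1, Ltbp3 and Tgfbr3 were -0.40, -0.31, -0.17 and 0.36. The 4 were Ltbp1, Tgfbr1 and Ltbp3 on the lower side, where 12.3% of all genes lay, and Tgfbr3 on the higher side, where 6.53% lay. Both mutants lay below all controls for 4 of the 10, against 24.4% of all genes, and above them for 1 of the 10, against 13.2%. The median log2 change was -0.16, beside -0.06 for all genes tested. With 2 against 3 libraries the exact permutation test, two-sided, cannot go below p = 0.1, which Tgfb3, Tgfbr3 and Ltbp3 reached on their FPKM values, while Tgfbr1 and Ltbp1 had an exact permutation p of 0.2.

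**Figure D3:**
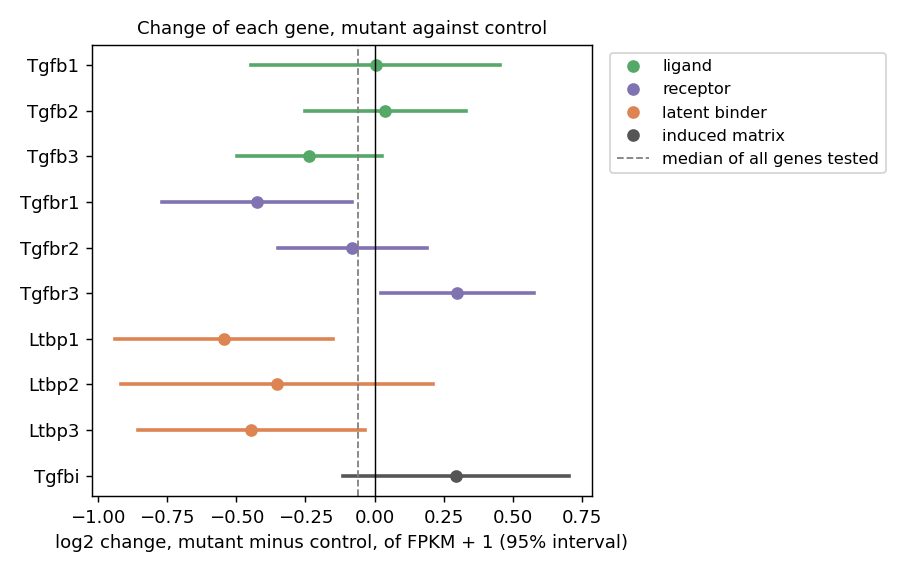
Log2 change of each gene, mutant minus control, on the scale of log2(FPKM + 1) (horizontal axis) with its unadjusted 95% interval from limma, coloured by role, and the median of all genes tested as a dashed line. The intervals of Tgfbr1, Ltbp1 and Ltbp3 lie below 0, that of Tgfbr3 lies above 0, and those of the other 6 genes include 0, while no gene passed after adjustment.

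The promoters of Ltbp1, Ltbp3 and Tgfbr1 are shown because these 3 genes lay below all controls and had the smallest unadjusted p on the lower side. Each is the stretch of 250 bases before the gene start in RefSeq (GRCm38.p6), written 5′ to 3′ along the gene, with capitals for the SMAD box, CAGAC or its reverse complement GTCTG, the short word that SMAD3 and SMAD4 bind.
Ltbp1, chr17:75005279-75005528, plus strand: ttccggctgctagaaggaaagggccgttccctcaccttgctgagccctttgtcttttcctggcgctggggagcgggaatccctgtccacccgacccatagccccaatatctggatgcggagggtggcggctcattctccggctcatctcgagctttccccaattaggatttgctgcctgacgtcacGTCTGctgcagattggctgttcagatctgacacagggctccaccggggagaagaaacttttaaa
Ltbp3, chr19:5740650-5740899, plus strand: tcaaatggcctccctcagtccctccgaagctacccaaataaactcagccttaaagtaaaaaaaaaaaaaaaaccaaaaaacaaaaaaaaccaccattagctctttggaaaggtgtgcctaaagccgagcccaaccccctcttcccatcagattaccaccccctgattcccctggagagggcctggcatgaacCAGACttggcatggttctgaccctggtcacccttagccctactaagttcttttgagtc
Tgfbr1, chr4:47352972-47353221, plus strand: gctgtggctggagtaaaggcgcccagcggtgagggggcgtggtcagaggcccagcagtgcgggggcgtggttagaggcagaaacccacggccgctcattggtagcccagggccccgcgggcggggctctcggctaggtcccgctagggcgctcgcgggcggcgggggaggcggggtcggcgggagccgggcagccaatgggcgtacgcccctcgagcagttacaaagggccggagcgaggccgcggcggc
The Ltbp1 and Ltbp3 windows each held 1 SMAD box and the Tgfbr1 window held 0. RefSeq lists a further start for Ltbp1 and for Tgfbr1, whose windows held 2 and 1. In all, 8 of the 10 genes had a window, Tgfb3 and Tgfbr3 being the others, and 8 of their 10 windows held the box, as did 42.2% of the 32851 windows of this length. The word has only 5 letters, so a match describes the letters and not a bound site. The base composition differed widely, with G and C at 74.8% in the Tgfbr1 window, 56.8% in that of Ltbp1 and 47.2% in that of Ltbp3, beside a median of 52.4% over all windows.

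The genes whose profile over the 5 libraries came closest to that of Ltbp1, by the root mean square difference of centred log2(FPKM + 1), were Igf2, an embryonic growth factor gene (0.0145), Mmp16, a membrane-bound matrix protease gene (0.0381), and Ephb3, an ephrin receptor gene (0.0405). Igf2 was at 58.3 and 47.8 FPKM in the mutants, against 75.0, 68.6 and 95.5 FPKM in the controls. Chosen for this likeness, all 3 had, like Ltbp1, their highest value in control replicate 3 and their lowest in mutant replicate 2. None of them passed with limma (adjusted p = 0.121, 0.116 and 0.198 for Igf2, Mmp16 and Ephb3).

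The rest of the pathway was read from lists of activators, signalling components, inhibitors, response genes and microfibril genes, 78 genes besides the 10, of which 73 could be tested. Of these 1 rose and 2 fell with limma, and 70 did not pass, while 0.989% of all genes rose and 1.37% fell. The median log2 change was -0.23, beside -0.06 for all genes, with 4 genes above and 30 below all controls, where 13.2% of all genes lay above and 24.4% below.

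Of 18 signalling components, 1 passed. Bambi, which encodes a receptor without a kinase that dampens TGF-beta and BMP signals, rose. It was at 22.8 and 23.1 FPKM in the mutants, against 9.03, 12.6 and 12.6 FPKM in the controls, with a log2 change of 0.97 (SE 0.15, limma adjusted p = 0.0294). Both mutants were far above every control. Leaving out mutant replicate 1 or 2 ended the call (log2 change 0.98 and 0.95, limma adjusted p = 0.143 and 0.222), where the single mutant left was taken to be as variable as the controls. So did adjusting for the share of male RNA (log2 change 1.2, limma adjusted p = 0.0667) and testing without a filter (log2 change 0.97, limma adjusted p = 0.115).

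The SMAD genes are given outside the naming rule for their place in the pathway. The log2 change was -0.03 for Smad2, -0.06 for Smad3, -0.13 for Smad4, -0.04 for Smad7 and 0.21 for Smad6, of which Smad7 and Smad6 encode inhibitory SMADs. Smad6 was at 13.8 and 10.7 FPKM in the mutants, against 8.10, 10.4 and 13.1 FPKM in the controls, and the groups overlapped. For Smad4 alone among these 5 the mutants, at 28.4 and 25.7 FPKM, lay below all controls, at 29.4, 28.9 and 30.9 FPKM. Skil and Pmepa1, feedback genes of the pathway that were also chosen after their values were seen, had log2 changes of -0.62 and -0.39 (limma adjusted p = 0.128 and 0.2).

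Of the 14 activators and carriers tested, 0 passed with limma, and the median log2 change was 0.00. Nrros, whose product tethers latent TGF-beta on myeloid cells, was at 4.76 and 5.11 FPKM in the mutants, against 3.04, 3.70 and 3.04 FPKM in the controls (log2 change 0.48, limma adjusted p = 0.113). Fbn2, a fibrillin gene of fetal microfibrils, was at 65.6 and 58.2 FPKM in the mutants, against 72.9, 76.3 and 74.3 FPKM in the controls (log2 change -0.27, limma adjusted p = 0.226). Ltbp4, the remaining binder of the family, named outside the rule, had 50.1 and 36.3 FPKM in the mutants, against 56.7, 49.0 and 59.7 FPKM in the controls. Its mutant replicate 1 lay inside the range of the controls.

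Of the 8 inhibitors tested 0 passed with limma, and both mutants lay below all controls for 5 of them, where 24.4% of all genes did, with a list median of -0.46. Fst encodes follistatin, a secreted trap of activins. It was at 1.28 and 1.97 FPKM in the mutants, against 4.19, 3.23 and 4.51 FPKM in the controls (log2 change -0.93, limma adjusted p = 0.0516). These values rest on 47 and 72 reads in the mutants and 183, 123 and 192 reads in the controls. Fst passed in 2 of the 17 other settings, among them voom (adjusted p = 0.042). It missed when adjusted for the share of male RNA (log2 change -0.73, limma adjusted p = 0.369) and with no filter (log2 change -0.93, limma adjusted p = 0.166). Bgn, which encodes the matrix proteoglycan biglycan, was at 52.7 and 43.2 FPKM in the mutants, against 68.2, 68.0 and 67.8 FPKM in the controls (log2 change -0.50, limma adjusted p = 0.0732).

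Of 23 response genes tested 1 passed, with a list median of -0.30. Both mutants lay below all controls for 12, where 24.4% of all genes did. Among those 12, Acta2 is also counted with the smooth muscle markers below, and Col1a1 and Col3a1 with the mesenchyme markers. Tnc, which encodes the matrix glycoprotein tenascin C, fell. It was at 8.84 and 8.33 FPKM in the mutants, against 18.7, 16.8 and 19.5 FPKM in the controls, with a log2 change of -1.01 (SE 0.11, limma adjusted p = 0.00861). Its log2 change was -1.05 without mutant replicate 1 (limma adjusted p = 0.0759), -0.97 without mutant replicate 2 (adjusted p = 0.0938) and -0.94 when adjusted for male RNA (adjusted p = 0.0866).

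All 16 microfibril genes tested had negative log2 changes, with a list median of -0.37, where 61.1% of all genes did, and both mutants lay below all controls for 10, where 24.4% of all genes did. Some of the 16 were also counted in the lists above: Fbn1, Fbn2 and Ltbp4 as activators, Emilin1 as an inhibitor, and Eln and Lox as response genes. Of the 16, 1 passed. Fbln5, which encodes fibulin 5, a scaffold of elastic fibres, fell. It was at 16.2 and 12.3 FPKM in the mutants, against 31.4, 30.2 and 31.3 FPKM in the controls, with a log2 change of -1.08 (SE 0.13, limma adjusted p = 0.0115). Its log2 change was -0.90 without mutant replicate 2 (limma adjusted p = 0.0895), -1.13 when adjusted for male RNA (adjusted p = 0.0739) and -1.08 with no filter (adjusted p = 0.0575).

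**Figure D4:**
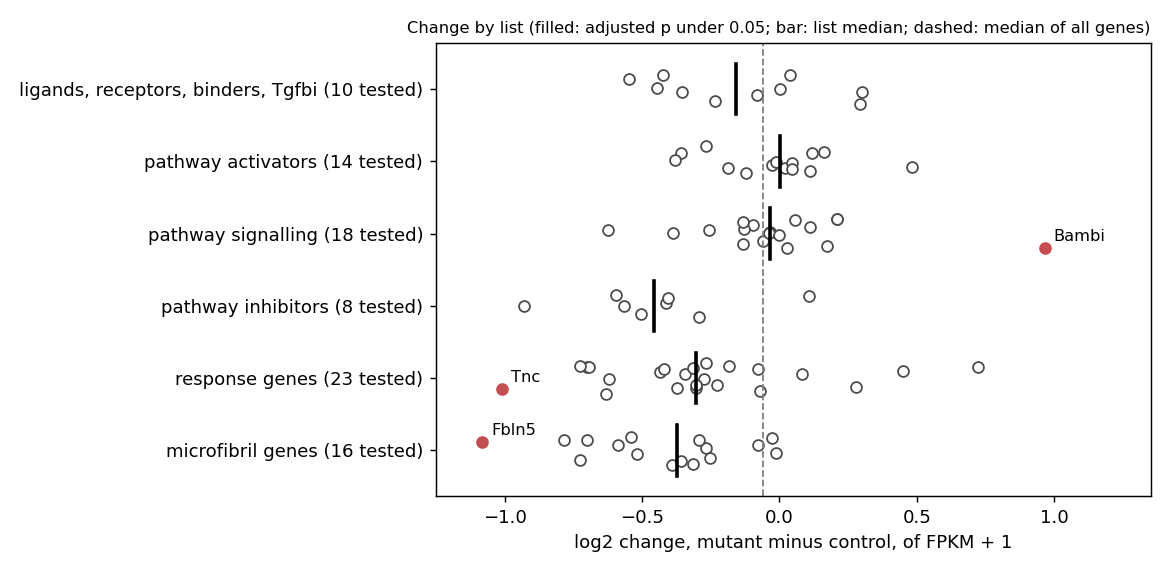
Log2 change, mutant minus control, on the scale of log2(FPKM + 1) (horizontal axis) of each gene tested in the 10-gene set and in 5 lists of the wider pathway, with list medians as bars, the median of all genes as a dashed line and genes past an adjusted p of 0.05 filled. Bambi stands at 0.97, Tnc at -1.01 and Fbln5 at -1.08, and no gene of the 10 is filled.

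Markers of some other cell types moved with the same contrast, while those of others overlapped between the groups or went both ways. Over all genes tested, 24.4% lay below all controls and 13.2% above them, while 0.989% rose and 1.37% fell with limma. All 7 smooth muscle markers tested lay below all controls. Their summed level was 174 to 215 FPKM in the mutants and 291 to 445 FPKM in the controls. Cartilage markers summed to 78.7 to 107 FPKM in the mutants and 146 to 172 FPKM in the controls, with 5 of 8 tested below all controls, and skeletal muscle markers to 76.5 to 173 FPKM in the mutants and 322 to 757 FPKM in the controls, with 9 of 9 below all controls. Mesothelium markers summed to 183 to 241 FPKM in the mutants and 98.1 to 128 FPKM in the controls, with 5 of 7 tested above all controls. Mesenchyme markers summed to 1426 to 1702 FPKM in the mutants and 1607 to 2040 FPKM in the controls, but went both ways by gene: 5 of the 12 lay above all controls and 3 below, 2 rose and 1 fell with limma, and the median log2 change was 0.08. Endothelial markers overlapped, at 136 to 166 FPKM in the mutants and 118 to 174 FPKM in the controls, and so did macrophage markers, at 94.5 to 111 FPKM in the mutants and 63.7 to 96.8 FPKM in the controls. Neuron markers lay at 34.0 to 45.9 FPKM in the mutants and 62.6 to 87.7 FPKM in the controls, with 8 of 8 below all controls. Heart markers overlapped, at 129 to 365 FPKM in the mutants and 186 to 837 FPKM in the controls. Red cell markers overlapped too, at 3656 to 4413 FPKM in the mutants and 3171 to 4360 FPKM in the controls. With limma, 7 of 9 skeletal muscle, 4 of 8 cartilage, 3 of 8 neuron and 1 of 7 smooth muscle markers tested fell. None of the mesothelium, endothelial, macrophage, heart or red cell markers passed with limma. Of these lists only Myf5, of skeletal muscle, was at 0 in a library. The part of these cell types in the values of the binders, receptors and matrix genes was not tested.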

How the data were processed

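The data were 1 table of FPKM values that the authors deposited, with 19699 gene entries and 5 libraries. The name of the deposited table gives the unit FPKM, and the build GRCm38 (mm10) is per the submitters' processing notes. The sources used here give no aligner, counter, annotation, filter or strand setting. Groups and replicate numbers came from the titles. No column was without a sample.

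Whole reads were recovered for 100% of entries (relative tolerance 1e-09) from the steps between values. Gene lengths so implied equalled the summed exons of GENCODE M21 for 73.9% of 18893 genes with 1 symbol match. Where a length was not settled by the annotation the reads may share a missed factor. The test was limma 3.58.1 in R 4.3.3 (lmFit and trended eBayes, two-sided) of log2(FPKM + 1), with no covariate and all 5 libraries. The 12838 genes with 1 FPKM or more in at least 2 libraries were kept, and p-values were adjusted over them by the Benjamini-Hochberg method, at a threshold of 0.05. Intervals are limma's 95% intervals, not adjusted.

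The alternatives were other pseudocounts (0.1, 0.5), filters, scalings and variance models, voom on the recovered reads, a replicate block, the male share (summed FPKM of Ddx3y, Eif2s3y, Kdm5d and Uty over the highest library) and leaving out each library. The members and lists were chosen with earlier results of these data known. Named are the 10 members, Prmt5, the genes of each list past the threshold or else the 2 with the smallest p, and the 3 genes most like the member with the smallest p. Promoter sequences are from RefSeq. The fit was tested on simulated reads. Some items of these data are not reported here.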

Additional observations from a re-analysis of the deposited data

How the results depend on the processing

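Of the 10 members, 0 passed under any of the 17 other settings, and the smallest adjusted p among them was 0.0828, for Ltbp1 with voom. Of 168 member values, 156 kept their direction. The sign turned with TPM for Tgfb1 and Tgfb2 (-0.52 each), Tgfbr3 (-0.22) and Tgfbi (-0.27), with TPM without Gm23935 for Tgfb1 (-0.063) and Tgfb2 (-0.031), and with median ratio scaling for Tgfbr2 (0.0015). Leaving out 1 library gave -0.17 to 0.13 for Tgfb1, -0.035 to 0.12 for Tgfb2 and -0.20 to 0.038 for Tgfbr2. Tgfb1 and Tgfb2 turned without mutant replicate 1 or control replicate 1, and Tgfbr2 without mutant replicate 2. Under TPM all genes had a median log2 change of -0.59, since Gm23935 alone held 7.69% to 64.8% of the summed FPKM, and relative to that shift Tgfb1, Tgfb2, Tgfbr3 and Tgfbi were higher. TPM without Gm23935 was chosen after seeing the data.

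The count of all genes called, 303, was 69 with no filter, 67 with TPM, 603 with voom, 55 with the male share and 12 to 308 with 1 library left out, where a single mutant left was taken to be as variable as the controls. Its split was 127 higher and 176 lower, but 151 and 140 with median ratio scaling, 133 and 115 with quantile normalization and 112 and 277 with TPM without Gm23935. The count of the other pathway genes called, 3, was 1 with no filter, 0 with TPM, 5 with TPM without Gm23935, 7 with voom, 0 with the male share and 0 to 4 with 1 library left out. The replicate block gave 259 genes, 0 members and 3 pathway genes. The numbers pair no samples by the labels, and the deviations of same-numbered samples correlated at -0.07 and 0.02. Since control replicate 3 has a block of its own, its estimates are those without that library. Ltbp2 could not be tested without control replicate 1 or 2, where it missed the filter. The planned quasi-likelihood count model was not run, since the deposited values are FPKM. The cause of these shifts was otherwise not tested. Values from 2 mutants leave wide intervals, such as -0.45 to 0.45 for Tgfb1.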
